A study of Homo sapiens with 12 samples.

Results

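The arrays described here are the 3 labelled replicate 4, 1 from each treatment group, set against the 9 labelled replicate 1, 2 or 3, out of 12 in all. They were chosen by values measured on these same arrays, because the replicate 4 arrays stood apart from the others. Every difference between the sets is therefore given as a description, without a test. All cells were HMT-3522 S1, an established line of human breast epithelium that is not tumorigenic and grows into hollow, polarized acini in basement membrane gel. Every group was plated at 35000 cells per cm2, at a stated passage between 55 and 60, and cultured with 5% Matrigel, for 8 days with EGF and then 48 hours without it. The vehicle group is described in the labels as apically polarized. The AGA group received 18-alpha-glycyrrhetinic acid, which blocks gap junctions, at 10 µM for 10 days, and the Aza group received 5-aza-2'-deoxycytidine, which inhibits DNA methyltransferases, at 10 µM for 10 days. Both of these groups are described as not polarized. The replicates are called biological, but the labels do not say which cultures shared a day, a thaw, a passage or a lot of gel. The 3 replicate 4 arrays may thus come from 1 round of culture, and the spread between them may be technical.

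S1 cells carry basal keratins and E-cadherin, deposit basement membrane around each acinus, and depend on EGF for growth in this medium. Signalling from the EGF receptor through the MAP kinase cascade switches on immediate early genes within minutes, among them transcription factors of the EGR, FOS and JUN families, and then genes for phosphatases and adaptors that damp the cascade. Insulin-like growth factors form a second growth input, held in check by secreted binding proteins. Levels below are log2 array intensities after quantile normalization, on which 1 unit is a doubling and 0 is the floor, and the median over all probe sets was 4.84. Epithelial markers were read first. KRT5 ran from 11.94 to 12.79 over the 12 arrays, KRT14 from 11.17 to 12.92, KRT8 from 6.85 to 8.30, KRT18 from 7.29 to 8.54 and the E-cadherin gene CDH1 from 6.52 to 8.76. KRT19 was at the floor on 12 of 12 arrays, and EPCAM reached at most 3.45. These levels mark epithelium and do not tell 1 stock of the line from another.

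Replicate 4 was the largest single source of difference among the arrays. Over all 22215 probe sets, component 1 of a principal component analysis took 16.4% of the variance. It placed vehicle 4 at 80.2, AGA 4 at 69.3 and Aza 4 at 84.5, and the other 9 arrays between -42.2 and -12. Of the variance along it, 96.6% lay between replicate 4 and the rest and 0.95% between the treatment groups. Deposited medians ran from 23.3 to 35.9 over the 12 arrays and from 25.5 to 29.6 in replicate 4. Of 6 measures of array quality, which the choice of arrays did not use, none passed after adjustment (exact permutation within groups, two-sided, 64 arrangements). With a smallest possible p of 0.0156, which adjusts to 0.0938 for a single measure, none could have passed on its own, so this says nothing of whether quality was equal. The nearest was the log2 3'/5' signal ratio of GAPDH, a measure of RNA integrity, at 0.197, 0.229 and 0.194 in replicate 4 against 0.216 to 0.464 elsewhere (difference -0.11, exact permutation p = 0.0469, adjusted p = 0.281). On quantile normalized levels it differed by -0.14 (exact permutation p = 0.0156, unadjusted and the smallest possible). The ratio for ACTB lay within the range of the other arrays. The GAPDH ratio was thus below that range in vehicle 4 and Aza 4 and inside it in AGA 4. Its part in the differences below was not tested.

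A probe set was called higher or lower where all 3 replicate 4 arrays lay beyond all 9 others and the difference, with treatment group as a factor, was at least 1 on the log2 scale. By that rule 370 probe sets were higher (1.67%) and 431 lower (1.94%). With the brightest probe set per gene, 186 of 11939 genes were higher (1.56%) and 269 lower (2.25%), and the median difference over all genes was 0.02. These shares are the background for each count below, and since the same contrast chose the arrays nothing is read from how a list's count stands to them. Without the limit of size, all 3 replicate 4 arrays lay above the other 9 for 1668 of 22215 probe sets and below them for 1580. Sets that do not overlap were thus far more common than calls.

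The 5 genes that mark the replicate 4 arrays show how wide the gap was. BEX1, a small X-linked protein best known from neural tissue, measured 11.04, 10.76 and 10.98 in vehicle 4, AGA 4 and Aza 4 and ranged from 6.21 to 7.16 elsewhere (difference 4.29 ± 0.16, SE). CRISPLD2, a secreted matrix-associated protein, measured 7.68, 8.12 and 7.98 against 2.68 to 4.82. NID1, the laminin- and collagen-IV-binding basement membrane protein nidogen 1, measured 9.93, 9.49 and 10.13 against 5.37 to 8.14. In the other direction, IGFBP2, a secreted binding protein for insulin-like growth factors, measured 1.43, 1.82 and 3.11 against 7.15 to 8.47 (difference -5.58 ± 0.31, SE). The immediate early transcription factor EGR1 measured 6.60, 5.41 and 5.33 against 7.05 to 9.59. For none of the 5 did the sets overlap, which their choice as markers of these arrays favours. In RNA from a whole culture, fewer cells of a type and less RNA per cell cannot be told apart. Of the called genes, 171 had further probe sets, 290 in all, of which 250 lay on the same side and 89 were called the same way; for EGR1 the second probe set differed by -4.19. Besides IGFBP5 and SPRED2, described below, a dimmer probe set pointed the other way for EFNB3 (0.65), FBLN1 (-0.82) and ITGAM (-0.42).

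**Figure D1:**
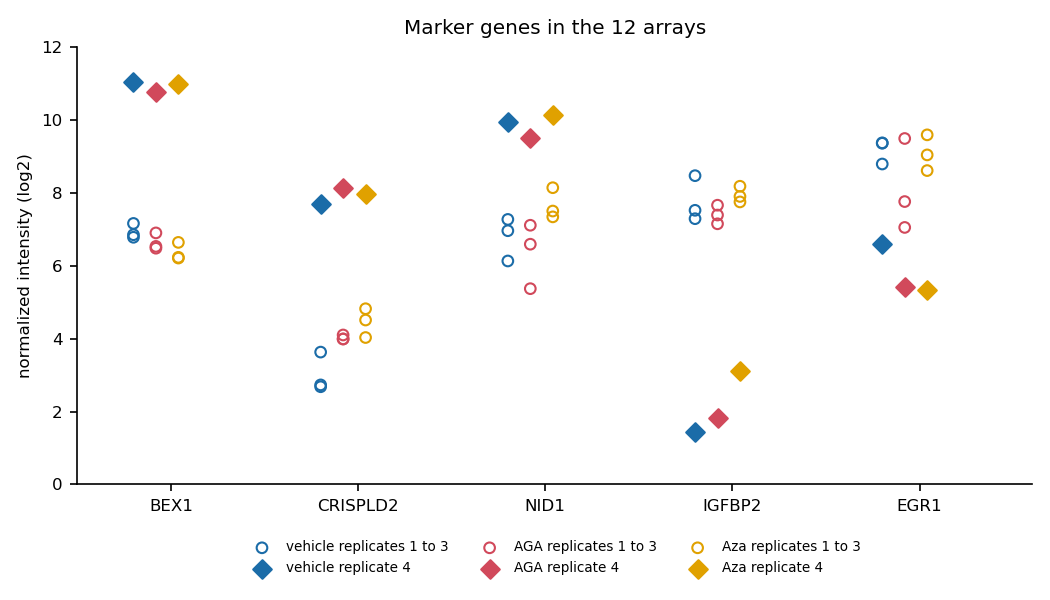
Normalized intensity (log2, vertical axis) of the 5 marker genes on each of the 12 arrays; filled diamonds are replicate 4 and open circles replicates 1 to 3, coloured by treatment group. BEX1, CRISPLD2 and NID1 lay higher and IGFBP2 and EGR1 lower on all 3 replicate 4 arrays than on any other array.

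The largest difference of any gene belonged to SELENOP. SELENOP, the selenium-carrying plasma protein, measured 9.89, 9.88 and 9.55 in replicate 4, whereas the other arrays ran from the floor to 4.54 (difference 6.71 ± 0.88, SE). HSD17B2, which oxidises oestradiol to the weaker oestrone, measured 7.01, 7.94 and 7.27 against at most 3.85 (5.39 ± 0.54). THBD, the thrombin receptor thrombomodulin, measured 7.47, 6.60 and 7.35 against 2.28 to 3.93. FBLN5, an elastic fibre protein, was nearly level across replicate 4 at 9.90, 9.88 and 9.88, against 6.04 to 7.99. These levels show signal well above the array median in replicate 4 and, except for FBLN5, low signal elsewhere.

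Transporters and receptors followed. SLC2A3, a high-affinity glucose carrier, differed by 3.13, the fructose carrier SLC2A5 by 2.43, the amino acid carrier SLC38A4 by 2.49 and the anion exchanger SLC26A3 by 2.31. The receptor tyrosine kinase ROS1 measured 6.61, 6.79 and 6.79 against 3.16 to 4.45. IL1RL1, the receptor for interleukin 33, measured 9.26, 7.91 and 9.66 against 6.28 to 7.50, with AGA 4 the closest to the other arrays. CD1D, which presents lipid antigens, and ULBP2, a ligand of the natural killer receptor NKG2D, differed by 2.92 and 2.35. MTSS1, an actin- and membrane-binding protein, was among the brightest of these genes at 9.63, 9.93 and 9.81 against 7.04 to 8.22.

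Among the genes lowest in replicate 4, EYA1, a transcriptional coactivator and phosphatase of organ development, measured 1.28, 1.10 and 0.88 against 5.28 to 7.13 (difference -5.22 ± 0.33, SE). The growth hormone receptor gene GHR measured 6.07, 6.02 and 5.54 against 8.70 to 9.24, a narrow range over 9 arrays. GSPT2, a translation termination factor, was at the floor in vehicle 4 and at 0.92 and 2.39 in AGA 4 and Aza 4, against 5.13 to 6.04. DKK1, a secreted inhibitor of WNT signalling, measured 5.46, 6.75 and 5.46 against 8.12 to 9.58. FSTL1, a secreted glycoprotein, measured 4.01, 4.20 and 3.76 against 6.26 to 7.46. The actin-binding TAGLN measured 3.88, 3.89 and 3.55 against 5.00 to 7.46, the prostaglandin E receptor PTGER4 3.68, 4.39 and 3.93 against 6.03 to 7.92, and AUTS2 4.24, 3.75 and 3.57 against 6.41 to 6.95.

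The size of a difference depended on the floor for genes that were dim in either set. With values below 16 rather than below 1 set to the floor, 19 of the 50 genes plotted shrank by more than 1.5 times. All 50 kept their sign, which largely follows from choosing genes whose sets did not overlap. HSD17B2 went from 5.39 to 3.40, EYA1 from -5.22 to -2.31, FOSB from -4.63 to -1.76, GSPT2 from -4.57 to -1.67 and IGFBP2 from -5.58 to -3.70, whereas BEX1, NID1, FBLN5, GHR, EGR1 and DKK1 did not move. Differences of dim genes are best read as a separation of the sets.

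**Figure D2:**
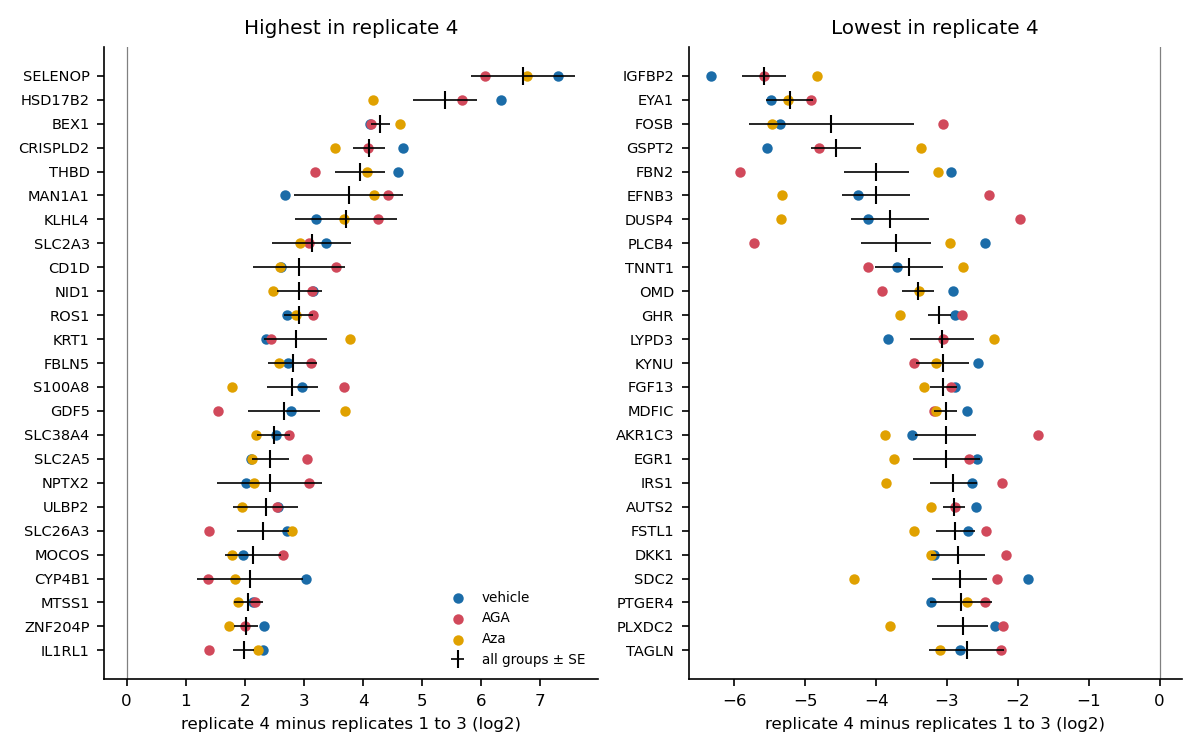
The 25 genes highest (left) and the 25 lowest (right) in replicate 4, as log2 difference between replicate 4 and the mean of replicates 1 to 3 within each treatment group (coloured points) and over all groups with its SE (black). Every point lies on its gene's side of 0, as the rule for a call requires. The groups differed widely for FBN2 and PLCB4, where AGA 4 was at the floor. They also differed widely for DUSP4, EFNB3 and AKR1C3, where AGA 4 was closest to the other arrays.

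Immediate early genes and the feedback regulators of MAP kinase signalling had a low median, the lowest of the 53 lists as normalized here, though with a floor of 16 it was -0.84 and that of the histones, at -0.91, was lower. Of 33 measured members, 13 were called lower and 0 higher, 30 of 33 differences lay below 0, and the median was -1.36 against 0.02 over all genes. By treatment group, the median was -1.50 in vehicle, -0.73 in AGA and -1.32 in Aza. Among the transcription factors, FOSB measured 1.14, 0.57 and 0.36 in replicate 4 against 1.33 to 7.98, and MYC, a driver of growth and ribosome production, measured 8.05, 8.09 and 8.27 against 9.13 to 11.31. JUNB measured 7.25, 7.68 and 6.80 against 7.70 to 9.74, a gap of almost nothing at AGA 4. ATF3 (-1.71), FOSL1 (-1.36) and KLF10 (-1.21) were also called lower.

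Feedback regulators were among the called members too. DUSP4, DUSP5 and DUSP6 are phosphatases that inactivate MAP kinases, and each was called lower. DUSP4 measured 2.68, 4.56 and 1.00 against 5.88 to 7.57, DUSP5 4.09, 4.80 and 3.95 against 5.00 to 7.99, and DUSP6 2.93, 2.91 and 1.17 against 3.24 to 6.21. SPRED2, an inhibitor of RAF activation, differed by -2.71 and was at the floor in AGA 4. Its other, dimmer probe sets differed by 1.09 and 0.30, in the opposite direction. ZFP36, which destabilises AU-rich transcripts, differed by -1.64 and the pseudokinase TRIB1 by -1.44. With a floor of 16, 10 of the 13 calls held. DUSP6 then differed by -0.84 and SPRED2 by -0.71, under the limit of 1, and FOSB, at -1.76, no longer had its arrays clear of each other.

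Several of the best known members were not called. FOS measured 8.41, 8.22 and 8.50 in replicate 4, inside the range of 7.71 to 10.74 elsewhere, and differed by -0.95. JUN differed by -0.50 and DUSP1 by -0.65, with ranges that met or overlapped. NR4A1 differed by -3.12 and IER3 by -2.51 with overlapping ranges. SPRY2, a receptor kinase antagonist, differed by -0.07, and KLF2 had the highest difference of the list at 1.13. The receptor gene EGFR lay just above the other arrays, and measured 11.23, 11.18 and 11.32 against 10.41 to 11.11, a difference of 0.49, and of 10 receptors and ligands of the EGF family 0 were called. The ligand gene HBEGF differed by -1.10 with overlapping ranges.

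The EGR1 promoter is shown because EGR1 marks the replicate 4 arrays and its start site carries the element through which serum response factor acts on many immediate early genes. The sequence, from RefSeq on GRCh38.p14, is chr5:138465229-138465528 on the plus strand, with CArG boxes in capitals (CC, any 6 of A or T, then GG, a pattern that reads the same on both strands).
EGR1 promoter: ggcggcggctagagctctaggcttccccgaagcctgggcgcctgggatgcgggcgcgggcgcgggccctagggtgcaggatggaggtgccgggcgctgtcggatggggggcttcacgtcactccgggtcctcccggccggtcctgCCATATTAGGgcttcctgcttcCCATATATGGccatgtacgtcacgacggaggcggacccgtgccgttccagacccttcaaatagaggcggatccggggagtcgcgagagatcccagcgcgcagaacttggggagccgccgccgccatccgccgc
It holds 2 such boxes. Over 15843 promoters of the same length, 1.21% held at least 1. Of the 13 members called lower, 7 had a promoter in the table, and EGR1 was the 1 of them with a box. Of 13 uncalled members with a promoter, 0 had one. The cyclic AMP response element TGACGTCA was in 0 of the 7 and in 1 of the 13, the promoter of DUSP1, and in 2.59% of all. These are matches of letters within 300 bases and say nothing of binding. Elements further from the start site were not looked for, so a promoter without a match may have one outside this stretch.

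Genes of insulin-like growth factor signalling were lower in part. Of 15 measured, 4 were called lower and 0 higher, with a median of -0.11. Besides IGFBP2, the binding proteins IGFBP3 (5.84, 6.24 and 5.44 against 7.40 to 8.59) and IGFBP5 (3.24, 2.79 and 3.70 against 4.34 to 6.03) and the receptor adaptor IRS1 (3.23, 3.98 and 2.44 against 5.24 to 6.62) were lower. IGFBP7, IGFBP6 and IGFBP4 differed by -0.03, 0.12 and 0.30, and IRS2, the paralogue of IRS1, by 0.05. The receptor gene IGF1R measured 7.20, 7.25 and 7.18 against 7.54 to 8.65, a difference of -0.79. The other 4 IGFBP5 probe sets, all dimmer, differed by 1.17, -0.73, 0.79 and -1.0, so its call rests on 1 probe set, whereas the second IGFBP3 probe set differed by -2.06.

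Basement membrane and matrix genes differed in both directions. NID1, FBLN1 and COL18A1 were called higher and COL4A2 lower, of 22 measured, with a median of -0.06. FBLN1, which joins basement membranes to elastic fibres, measured 9.02, 8.35 and 9.19 against 6.43 to 7.55. COL4A2, a collagen IV chain, measured 6.14, 6.37 and 5.88 against 6.97 to 8.05, and its partner COL4A1 differed by -0.79. The laminin chain genes LAMB1 (0.44), LAMC1 (0.34) and LAMA5 (-0.55) were not called. Of 26 interstitial matrix genes 1 was higher, CRISPLD2 (4.10), and 2 were lower. The fibrillin FBN1 was lower at 4.38, 5.27 and 5.18 against 6.65 to 7.88, and fibronectin, FN1, lay just past the limit at -1.01. Another fibrillin, FBN2, was at the floor in AGA 4 and differed by -4.0. Integrins, the matrix receptors, gave 1 higher and 2 lower of 14: the fibronectin receptor chain ITGA5 differed by 1.47, the laminin receptor chain ITGA6 by -1.34 and ITGB5 by -1.06. The calls of COL4A2, COL18A1, FN1 and ITGB5 rest on 1 probe set each. Their other probe sets were not called, at -0.54 for COL4A2 and 1.11 for COL18A1. Those of FN1 ran from -0.95 to -0.09 and those of ITGB5 from -1.78 to -0.18. At least 1 further probe set each of NID1, FBLN1, FBN1 and ITGA6 was called the same way.

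Junction genes that bear on acinar polarity were mostly uncalled. At the adherens junction, CDH1 measured 7.12, 6.85 and 6.52 against 7.59 to 8.76 and NECTIN3 3.64, 3.75 and 3.86 against 5.51 to 6.21, and 0 of the other 9 were called. Among 23 tight junction and apical genes, EZR, which links apical membrane to actin, measured 9.61, 9.32 and 9.46 against 7.31 to 8.06, and OCLN, the tight junction protein occludin, 5.65, 5.62 and 5.43 against 2.67 to 4.83. The desmosomal plaque gene PKP2 differed by 1.57. Of 7 gap junction genes 0 were called. The rule for a call requires all 3 replicate 4 arrays to stand apart. That the called differences appear in the polarized vehicle cultures and in both non-polarized groups is therefore built in.

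Lineage markers gave few calls. Of 20 luminal genes, with differences from -1.82 to 1.02, 0 were called, and of 16 basal and myoepithelial genes, from -2.72 to 2.10, TAGLN alone, while KRT5 differed by 0.43, KRT14 by -0.69 and KRT8 by 0.55. The stress keratin KRT16 differed by 2.10 with overlapping ranges. The squamous list had a median of 0.50 over 24 genes, with S100A8 (7.32, 9.08 and 6.87 against 4.30 to 6.56) and the dim KRT1 higher and KLK11 lower. With a floor of 16 KRT1 differed by 0.95, KLK11 by 0.0 and the list median was 0.0, while S100A8 stayed at 2.80.

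Proliferation genes gave few calls. Of 30 mitosis genes 0 were called (median 0.08), and of 28 replication genes 1, POLE2, a DNA polymerase epsilon subunit, which was higher (1.78). Among 11 cell cycle inhibitors 10 differences lay above 0 (median 0.57), and GAS1, a growth arrest protein, was called, at 10.52, 9.93 and 10.35 against 8.07 to 9.06. The cyclin-dependent kinase inhibitors CDKN1B and CDKN1C differed by 0.82 and 0.70. CDKN1B measured 9.98, 9.80 and 9.56 against 8.61 to 9.22 and was thus clear of the other arrays but below the limit of size. Histone genes ran the other way, with 4 of 11 lower, 0 higher and a median of -0.99. H2BC21 measured 7.45, 7.61 and 7.28 against 8.75 to 9.48, the linker histone H1-2 6.39, 6.68 and 6.28 against 7.75 to 8.58, and the variant H2AZ1 10.82, 10.39 and 10.51 against 11.31 to 12.30.

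Metabolic and stress lists held small groups of strong members. The aldo-keto reductases AKR1C1, AKR1C2 and AKR1C3, which reduce steroids and prostaglandins, differed by -2.30, -2.55 and -3.02, while the glutathione conjugate pump ABCC2 was higher, at 7.96, 7.99 and 8.07 against 6.35 to 7.11. AKR1C3 measured 3.84, 6.20 and 3.96 against 6.86 to 8.53, so AGA 4 was closest to the other arrays. The AKR1C transcripts are near-identical and their probe sets may share signal. Other targets of the oxidative stress factor NRF2 were not called, NQO1 differing by -1.0 with overlapping ranges and GCLM by -0.17. Of 10 fatty acid synthesis genes 3 were called lower and 0 higher, but 6 differences lay above 0 and the median was 0.19. The desaturases SCD and FADS2 and their regulator SREBF1 were lower (-1.71, -1.48 and -1.90), whereas FASN and ACLY differed by 0.37 and 0.42. The gap was small for FADS2, at 4.63 in AGA 4 against a lowest of 4.72 elsewhere. For SREBF1 it was small at vehicle 4, 4.52 against 4.74. Of 17 cholesterol synthesis genes 0 were called, with 14 differences below 0 and a median of -0.39. Ribosomal proteins (41), oxidative phosphorylation (40) and proteasome genes (26) had 0 calls and medians of 0.05, -0.05 and 0.14.

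Markers of other cell types were read beside these lists. Fibroblast markers had 0 of 12 called and a summed log2 level of 32.7 to 36.4 in replicate 4 against 30.8 to 41.6, with LUM and FAP near the floor. Leukocyte markers had 1 of 14 called, ITGAM, and summed to 37.6 to 43.2 against 29.1 to 43.6, with PTPRC at a mean of 1.40 against 1.13. Endothelial and fat markers had 1 of 12, VWF, which was lower and near the floor in both sets, and summed to 33.1 to 36.9 against 30.8 to 39.5. Neural markers had 3 of 15, all lower (MAP2, SYT1 and NEFL), summing to 43.5 to 46.1 against 42.4 to 51.5. Of the 15 differences, however, 8 lay above 0, with a median of 0.17. Muscle and erythroid markers had 1 of 8, TNNT1, which was lower, summing to 15.2 to 19.8 against 18.0 to 24.4. Of these 8 differences 5 lay above 0, with a median of 0.05. In all 5 lists the summed levels of the sets overlapped.

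**Figure D3:**
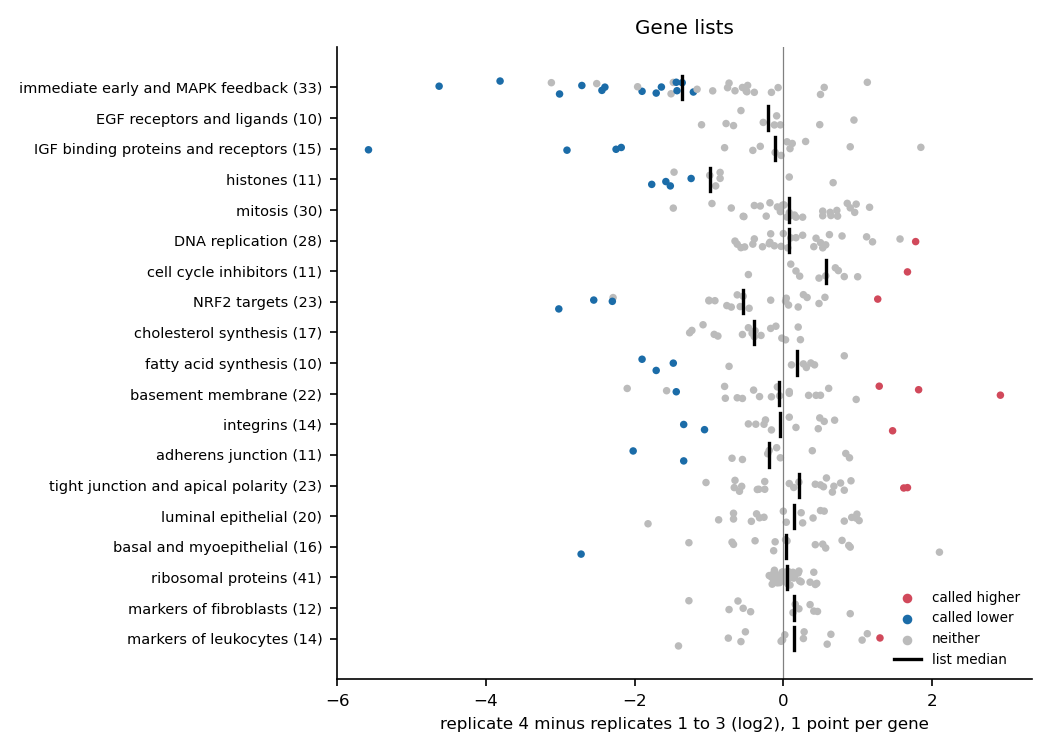
Log2 difference between replicate 4 and replicates 1 to 3 for each measured gene of 19 lists (1 point per gene, number of genes in parentheses, points spread vertically at random within a row); red and blue points were called higher and lower and the black bar is the list's median. The immediate early list (median -1.36) and the histones (median -0.99) lie furthest left, and ribosomal proteins cluster at 0.

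Within each chromosome the differences leaned to a common side, which is again a description of the contrast that chose the arrays. Over 11930 genes with a chromosome, the median difference was above 0 on 11 chromosomes (0.07 to 0.43) and below 0 on 12 (-0.26 to -0.13). Chromosome 6 was highest, at 0.41, 0.46 and 0.42 in vehicle 4, AGA 4 and Aza 4, and 71.9% of its 673 genes lay above 0. Chromosome 18 was lowest, at -0.29, -0.27 and -0.27. On 23 of 23 chromosomes the 3 replicate 4 arrays fell on the same side of 0 and beyond the range of the other 9 arrays, which stayed between -0.08 and 0.09 when each was set against its group's other replicates. Chromosome 6 held 35 genes called higher and 5 lower, and chromosome 10 held 4 higher and 25 lower.

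Neighbouring genes mostly leaned the same way, to differing extents. Among the 6571 genes above the median level, a filter chosen after seeing the data, the medians ran from -0.36 to 0.52, and the chromosome accounted for 21% of the variance of the differences. Cut into 206 blocks of about 30 neighbouring genes, 203 blocks had a median on their chromosome's side, and 26 of the 206 lay inside the range of the other 9 arrays. On chromosome 6 the 10 blocks ran from 0.34, between DUSP22 and E2F3, to 0.72, between POLR1C and MTO1. On chromosome 1 all 21 blocks lay above 0, from 0.39 to 0.49 in the 5 blocks from NOC2L to C1orf216 and at 0.15 and 0.09 in the next ones, and on chromosome 2 all 14 lay below (-0.44 to -0.16). On chromosome 5 the block from SDHA to RAD1 was at 0.33, but 3 of 9 blocks lay inside the other arrays' range. The 3 blocks not on their chromosome's side lay at or next to 0, on chromosome 5 between MFAP3 and CLTB, on chromosome 19 between ZFP36 and ZNF576, and on chromosome 16 between TAF1C and DRC4. DNA copy number was not analysed here, and the labels do not say whether all cultures came from the same stock of the line.

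Subtracting each gene's chromosome median, an alternative also chosen after seeing the data, left 136 genes called higher and 239 lower, against 186 and 269. The immediate early median went from -1.36 to -1.20 and that of the NRF2 targets from -0.54 to -0.30, while the histone median moved further from 0, from -0.99 to -1.43, and was then the lowest of the 53 lists. The histones H1-2 and H2AC8 lie on chromosome 6, where most genes were higher, and differed by -1.52 and -1.58. BEX1, with a difference of 4.29, lies on the X chromosome, whose median was -0.18.

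**Figure D4:**
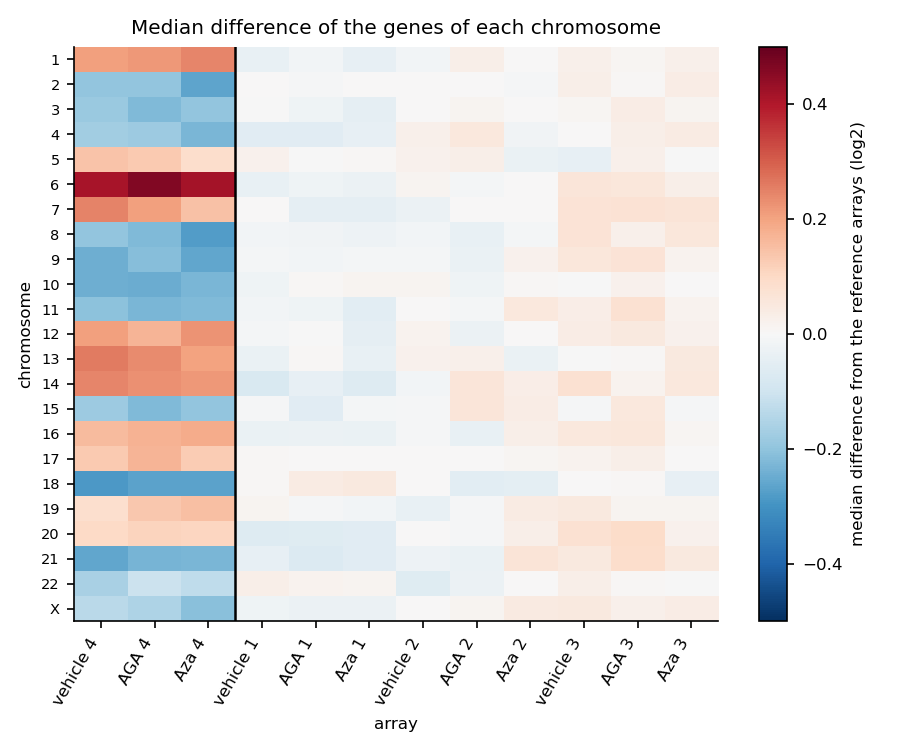
Median log2 difference of the genes of each chromosome (rows) on each array (columns); replicate 4 arrays, left of the line, are set against replicates 1 to 3 of their group, and each other array against the other members of replicates 1 to 3 of its group. Replicate 4 shows 11 chromosomes above 0 (red) and 12 below (blue), with the same signs on all 3 arrays, while the other 9 arrays stay between -0.08 and 0.09.

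Whether treatment acted differently in replicate 4 is independent of how the arrays were chosen and was tested. The AGA minus vehicle difference in replicate 4 differed from that in replicates 1 to 3 for 7 of 22215 probe sets (0.0315%, limma, Benjamini-Hochberg adjusted p under 0.05), 1 higher and 6 lower, with 1067 at an unadjusted p under 0.05. The Aza difference gave 0 (0.0%, limma), with 1069 unadjusted and a lowest adjusted p of 0.136. With the replicate number as a block, the AGA count was 0 (limma, 1353 unadjusted) and the Aza count 0 (limma, 1370 unadjusted), so no call held in that fit. Replicate 4 has 1 array per treatment, so the spread behind these tests comes from replicates 1 to 3 alone and the replicate 4 arrays are assumed to vary like them. Noise of a single array near the floor was not told apart from a difference.

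All 7 probe sets had a mean below the median level, and brighter probe sets of PASK, CRYBG2, BMP5 and CAPN6 were not called. PASK, a nutrient-sensing kinase, measured 3.52, 3.23 and 3.16 in vehicle 1 to 3 and 1.66, 1.23 and 1.41 in AGA 1 to 3, but 1.05 in vehicle 4 and 3.81 in AGA 4. CITED1, a transcriptional cofactor, went the other way, with 1.41, 1.34 and 1.62 in vehicle and 3.76, 3.92 and 3.73 in AGA for replicates 1 to 3, against 3.35 in vehicle 4 and 0.71 in AGA 4. CRYBG2 had the same pattern, at 0.00 to 0.30 and 3.11 to 3.89 against 2.68 and 0.00. PCDHB3, a clustered protocadherin, was at 3.76 to 4.98 on all vehicle arrays and at 0.21 in AGA 4. BMP5, CAPN6 and 1 unnamed probe set were within 0.09 of the floor in vehicle 1 to 3 and at 2.79, 3.04 and 3.75 in vehicle 4. For the 50 genes highest or lowest in replicate 4, the treatment difference in replicate 4 less that in replicates 1 to 3 was also read. It ran from -3.26 to 2.30 for AGA and from -2.46 to 2.17 for Aza. The rule that chose these genes disfavours those whose difference turned with treatment. These values therefore do not show that their differences were equal across treatments.

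**Figure D5:**
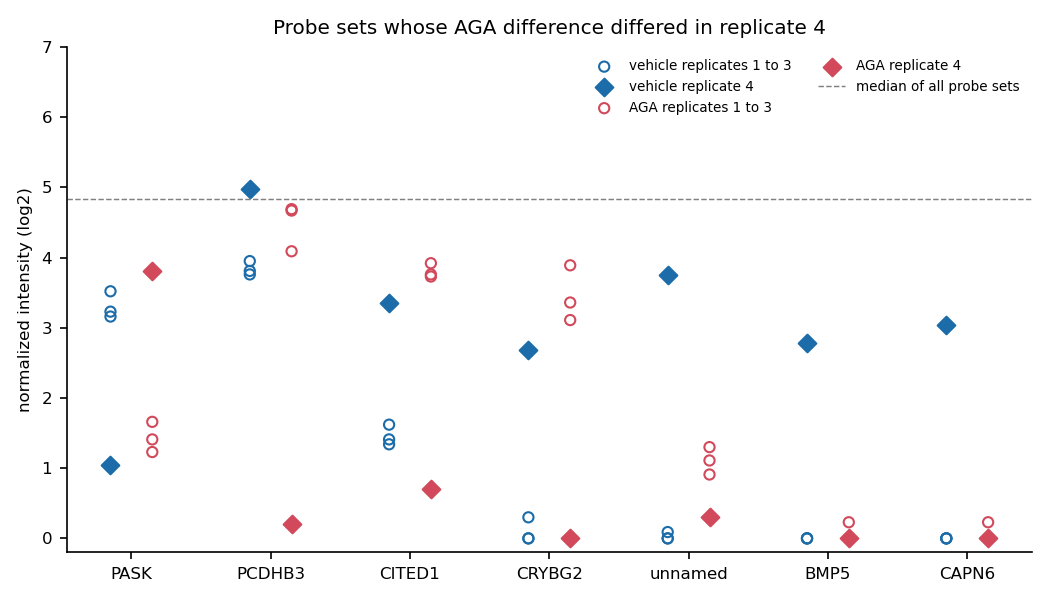
Normalized intensity (log2) on the vehicle (blue) and AGA (red) arrays for the 7 probe sets whose AGA minus vehicle difference differed in replicate 4; diamonds are replicate 4, circles replicates 1 to 3, and the dashed line is the median of all probe sets (4.84). The order of vehicle and AGA is turned round in replicate 4 for PASK, PCDHB3, CITED1, CRYBG2 and the unnamed probe set; for BMP5 and CAPN6 both groups of replicates 1 to 3 lie at or near the floor.

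The study's own comparisons were also fitted with and without the replicate 4 arrays. These fits differ in the number of arrays. No other replicate number was left out in turn, so a change in count cannot be tied to replicate 4. With all 12 arrays, 2 probe sets passed for AGA against vehicle (limma, adjusted p under 0.05), those of CYP1B1, a cytochrome P450, and KCNJ1, a potassium channel, and with replicates 1 to 3 alone 7 passed, 4 higher and 3 lower. Only the KCNJ1 probe set was in both. For Aza, 2 passed with all 12 arrays and 6 without replicate 4, with 1 shared. CYP1B1 differed by 3.71 in replicates 1 to 3 and by 3.18 in replicate 4, and KCNJ1 by 2.80 and 2.85. CYP1B1 passed only in the fit that included replicate 4, which favours a like difference there. CITED1, CRYBG2 and PASK passed only in replicates 1 to 3 (limma adjusted p of 0.0296, 0.0296 and 0.0451) and had the opposite sign in replicate 4. A probe set that passes only without replicate 4 is favoured to differ there. These genes are therefore not set against CYP1B1 and KCNJ1. EMX2 and PTGER3, both lower in replicates 1 to 3 with AGA and with Aza, which share the vehicle arrays, differed by 0.20 and -0.41 (AGA) and by -0.96 and 0.43 (Aza) in replicate 4. With the replicate number as a block, replicates 1 to 3 gave 0 calls for either treatment (limma, 1691 and 1157 at an unadjusted p under 0.05). With that block all 12 arrays gave 2 for AGA (2115 unadjusted) and 0 for Aza (1198 unadjusted).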

How the data were processed

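RNA of 3 groups of 4 cultures was hybridised to single-colour Affymetrix arrays. The authors deposited 1 linear intensity for each probe set (0.0206 to 11878), made with GCOS per the submitters' processing notes; its version, algorithm and scaling are not given in the sources used here. Values below 1 (5.26% to 7.94% per array) were set to 1, log2 was taken, 62 of 22277 probe sets were removed as controls, and the arrays were quantile normalized. The number of arrays limits the precision. Of 22215 probe sets, 19064 had 1 gene symbol, 1043 several and 2108 none; 19052 matched a gene table of assembly GRCh38.p14, which gave the chromosomes. Only probe sets with 1 symbol were named, and the brightest per gene was used. The files name no build, so gene positions are given by neighbouring genes; promoters carry their own build.

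Differences and their SE came from limma 3.58.1 (lmFit, treatment group and replicate 4 as terms, R 4.3.3). Interactions and treatment differences used limma with eBayes, two-sided, Benjamini-Hochberg over all probe sets, threshold 0.05. They had no block for the replicate number except where one is stated. Array quality was tested by exact permutation. Scripts were tested on simulated data. The arrays, gene lists and rules were chosen with earlier results of these data known. Named genes were the 5 markers, the 25 highest and 25 lowest called genes whose brighter side lay above the median level, up to 6 called genes per list with others of a list as values, and the 5 lowest p per direction for each interaction.

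Same-numbered arrays of replicates 1 to 3 deviated together from their group means. Over probe sets above the median level, 9 of 9 correlations exceeded 0.1 (0.291 to 0.461), against -0.302 to -0.051 for different numbers. Deviations from a group mean cancel within the group, so positive same-number values make those for different numbers negative on average. The negative values thus add no evidence. From the same-number values the numbers were taken to pair the samples, but only the alternative fits used them as a block. The main interaction and treatment fits did not pair the arrays. Over all probe sets the same-number correlations ran from 0.0406 to 0.0808. The pairing comes from the data, since the labels give only numbers. Restricting the check to probe sets above the median level was chosen with the blocked counts already known. If a number marks 1 round of culture, replicate 4 is 1 round against 3, and the SEs measure only the spread between arrays.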

Additional observations from a re-analysis of the deposited data

Results flagged for a closer look

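Within each group of 4 arrays, values far from the other 3 by Dixon's criterion were listed; chance gives this in about 1 in 20 groups. For genes, replicate 4 standing apart is what chose the arrays. BEX1 was at 11.04 in vehicle 4, 10.76 in AGA 4 and 10.98 in Aza 4, IGFBP2 at 1.43, 1.82 and 3.11, and CRISPLD2 at 8.12 in AGA 4. On component 1 AGA 4 (69.3) and Aza 4 (84.5) stood apart. Of 103 named genes, replicate 4 met the criterion for 19 in vehicle, 15 in AGA and 24 in Aza. ITGAM met it in vehicle 2 instead, at 2.36. The log2 median of the deposited values stood apart in vehicle 3 (5.16) and in Aza 4 (4.67).

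The AGA minus vehicle difference in replicate 4 less that in replicates 1 to 3 passed the interaction test for PASK (4.63), PCDHB3 (-5.41), CITED1 (-4.99), CRYBG2 (-6.03), 1 unnamed probe set (-4.53), BMP5 (-2.87) and CAPN6 (-3.11). All lost the call with the replicate block.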

How the results depend on the processing

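The count of probe sets higher in replicate 4 (370) was 241 on the deposited scale, 245 with a floor of 16 and 196 with dim probe sets left out, which removes probe sets. The lower count stayed within 1.5 times of 431 in these settings, and the share of higher calls fell from 46.2% to 29.4% on the deposited scale, where the median over genes was -0.09. At 4-fold, 64 were higher and 132 lower, by construction. Leaving out 1 array, so that fewer arrays have to lie apart, gave 374 to 606 higher and 448 to 635 lower. The count of higher probe sets was 606 without AGA 4, 575 without Aza 4 and 520 without vehicle 4. Why these 3 differed was not tested. Of 23 chromosomes, 20 kept their side with a floor of 16 and 23 in the other 18 settings. Here the side was taken from the median over all genes in each setting, not from 0. The AGA interaction count (7) was 1 on the deposited scale, 2 with median-centred arrays, 0 with dim probe sets left out, 0 with an intensity trend and robust prior, 0 with the replicate block, and 0 to 6 leaving out 1 array (0 without AGA 2, Aza 1, vehicle 2 or vehicle 3, 1 without vehicle 1 and 2 without AGA 3). The Aza count (0) was 0 to 3 leaving out 1 array, 3 without Aza 3. With a floor of 16 these counts were 425 and 453; the cause was not tested. The replicate block also gave 0 calls for AGA and for Aza in replicates 1 to 3 and 0 for Aza over all 12 arrays, and changed no other count. On quantile normalized levels the GAPDH ratio went from -0.11 to -0.14 (exact permutation p = 0.0156, unadjusted). The ACTB ratio went from 0.10 to -0.01 (exact permutation p = 0.953, unadjusted). Of 1924 values of named genes under alternatives, 1842 moved by less than the spread between groups and 82 by more. Of these values, 0 changed sign while called, which is little test, since called genes had sets that did not overlap. Of 1005 list medians, 127 moved by more than the spread between groups.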
